A study of Mus musculus with 8 samples.

Results

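Arginase and its partner genes of arginine metabolism were followed in sorted pancreatic beta cells, which make insulin, of the NOD mouse, a strain prone to autoimmune diabetes. The genes were Arg1, Arg2, Ass1, Asl, Slc7a7, Odc1, Nos2, Gatm and Agmat, which are 9 of the 23366 genes in the deposited table. They were picked by name, with the difference between the sorted populations already known for these data, so their values in that comparison are given as a description. All mice were NOD and 8 to 10 weeks old, and the labels name no treatment, allele or transgene. The sort gave a top and a bottom population with 4 libraries each, made from about 1000 cells per library, and 2 libraries of each population belong to batch 1 (top 1, top 2, bottom 1, bottom 2) and 2 to batch 2 (top 3, top 4, bottom 3, bottom 4). The labels do not state the marker that separates top from bottom, nor whether the libraries came from separate or pooled animals, so the spread between libraries may be partly technical.

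Arginine stands at a branch point. Arginases split it into ornithine and urea, nitric oxide synthases turn it into nitric oxide and citrulline, and an amidinotransferase passes its amidino group on for creatine. Ornithine feeds polyamine synthesis, and citrulline can be built back into arginine by argininosuccinate synthase and lyase. In islets the pathway is known for the inducible nitric oxide synthase, which inflammatory cytokines switch on in beta cells, and in the small intestine for the synthesis of citrulline that other organs use.

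Total estimated counts lay between 6657639 and 11262368 per library. The labelled cell type was checked with 10 beta cell genes, which summed to 344012 to 505634 CPM (counts scaled to library size, the unit of all levels here) in top and 38729 to 81375 CPM in bottom, and Mafa, a transcription factor of mature beta cells, had 0 counts in every library. Summed alpha cell genes stood at 65349 to 138330 CPM in top and 29370 to 142255 CPM in bottom, and in bottom 1 and bottom 2 they were above the beta cell sum. Summed delta cell genes stood at 2649 to 5296 CPM in top and 33403 to 57801 in bottom, and the PP cell hormones Ppy and Pyy at 1196 to 2356 and 11342 to 91991 CPM. Summed intestinal epithelial genes, which the sort should not hold, stood at 32340 CPM in bottom 1, 7571 in bottom 2, 2077 in top 1 and 760 in top 4. They stood at 14.5 to 174 CPM in the other 4 libraries. These sums stand beside several members below. In bulk RNA, fewer cells of a type and less RNA per cell cannot be told apart.

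Promoter windows were matched by symbol in the RefSeq table of build GRCm38.p6 for 5 of the 9 members, Ass1, Slc7a7, Odc1, Gatm and Agmat. Slc7a7 is shown because it was one of the members that stood highest in the libraries rich in intestinal transcripts. The table lists 5 start sites for it, and the counts do not tell which was used. The 250 bases before the most upstream start are chr14:54417945-54418194 on the minus strand, written 5′ to 3′ with the searched motif in capitals.
Slc7a7: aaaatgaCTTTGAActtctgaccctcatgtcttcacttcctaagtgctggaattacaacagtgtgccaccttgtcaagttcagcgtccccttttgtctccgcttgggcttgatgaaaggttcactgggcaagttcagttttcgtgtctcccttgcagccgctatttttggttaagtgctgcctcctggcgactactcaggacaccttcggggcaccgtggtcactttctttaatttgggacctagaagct
The motif was TTCAAAG, searched on both strands (CTTTGAA is its reverse complement), a stretch contained in the repeat that the HNF4 family of intestinal, liver and islet transcription factors binds. It was chosen after the sequence had been read, and it occurs 236 bases before this start and at none of the other 4 listed starts. Of the 5 matched members, 2 hold it at any of their listed starts. Of all promoters, 1464 of 32851 windows of the same length (4.46%) hold the motif. That share is per window and not per gene, so it is no baseline for the count of members. A match describes these letters only and does not tell which factor, if any, binds them.

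Arg1, the cytosolic arginase that is abundant in liver and inducible in macrophages, was higher in every bottom library than in any top library. In top it stood at 12.8, 19.96, 37.7 and 23.5 CPM in libraries 1 to 4. In bottom it stood at 133, 147, 148 and 176 CPM. The highest top library, top 3, was thus below the lowest bottom library, bottom 1, and the bottom values lay close together.

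The means were 23.5 ± 10.5 CPM in top and 151 ± 17.9 CPM in bottom (SD, n = 4), a 6.43-fold difference. The fitted log2 fold change of bottom over top was 2.75 with a standard error (SE) of 0.34. On the log2(CPM + 1) scale the SD of Arg1 within populations was 0.45, beside a median of 0.88 over the tested genes. Its SD was 0.61 among the top libraries and 0.17 among the bottom libraries. From summed counts it was 8.46-fold higher in bottom in batch 1 and 5.18-fold higher in batch 2.

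Of the 7 members that passed the filter on low counts, Arg1 and Slc7a7 were among the genes called higher in bottom (edgeR quasi-likelihood test, adjusted p under 0.05), where 0.282% of all 11721 tested genes were called higher and 0.162% lower. In both members no top library reached any bottom library, a separation seen with bottom higher in 3.31% of tested genes and in either direction in 7.22%. Of the 7 members 6 had a positive log2 fold change, as had 50.1% of tested genes. Because the members were named with this contrast known, and because a gene can pass the filter through the population where it is high, nothing is read from these counts. The call of Arg1 was lost without top 1, top 2, top 4 or bottom 4, and among such omissions that of Slc7a7 was kept only without top 1 or without bottom 2.

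**Figure D1:**
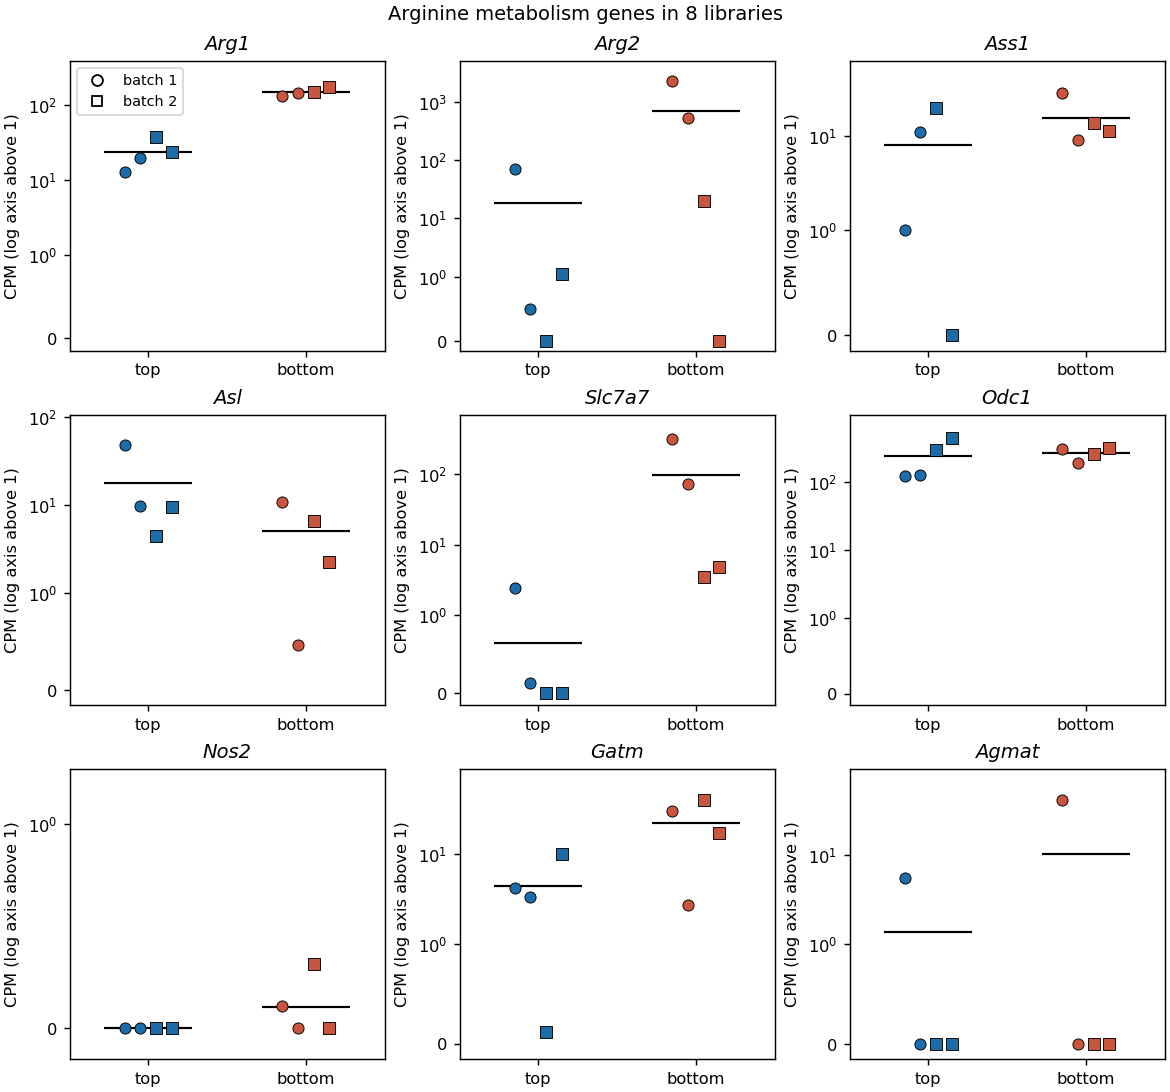
Levels of the 9 members in each library, in CPM after TMM scaling on an axis that is linear below 1 and logarithmic above. Circles are batch 1, squares batch 2, blue is top, red is bottom, and the black bar is the mean of 4 libraries. For Arg1 the bottom libraries sit at 133 to 176 CPM, all above the top libraries at 12.8 to 37.7.

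Markers of cells known for arginase were compared with Arg1. Of 13 macrophage genes, 9 had any count, and Cd68, Csf1r, C1qb and C1qc had 0 counts in all 8 libraries. Their sum was 1.09, 1.03, 21.1 and 22.4 CPM in bottom 1 to bottom 4, beside 133, 147, 148 and 176 CPM of Arg1. In top the macrophage sum was 1.11 to 7.91 CPM. In bottom 3 and bottom 4 most of it was Cd14, at 16.01 and 19.4 CPM.

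Summed pan-leukocyte genes stood at 3.83 to 22.1 CPM in bottom and 3.49 to 5.47 CPM in top. Of the 8 hepatocyte genes 7 were detected, with sums of 351, 166, 32.3 and 31.9 CPM in bottom 1 to bottom 4 and of 14.8 to 66.2 CPM in top. Much of the highest sums was the apolipoprotein gene Apoc3, at 337 CPM in bottom 1 and 123 CPM in bottom 2, while albumin (Alb) stood at no more than 0.316 CPM in any library and Ahsg had 0 counts. The intestinal sum ranged from 14.5 CPM in bottom 4 to 32340 CPM in bottom 1, and Arg1 was highest in bottom 4 and lowest among the bottom libraries in bottom 1. Without bottom 1 and bottom 2, a setting chosen after seeing the data, the log2 fold change of Arg1 was 2.40 (SE 0.46). Arg1 was not called in that setting. Delta and PP cell sums were higher in all 4 bottom libraries than in any top library, as was Arg1. The endothelial sum was 0.124 to 8.26 CPM in top and 8.30 to 205 CPM in bottom. Summed fibroblast and stellate genes stood at 0.251 to 12.4 CPM in top and 3.28 to 769 CPM in bottom, and the matrix genes Col3a1 (edgeR adjusted p = 0.0462) and Dcn (edgeR adjusted p = 0.0356) were called higher in bottom. Among the bottom libraries the PP cell sum ranged from 11342 to 91991 CPM, the delta cell sum from 33403 to 57801 and Arg1 from 133 to 176. The part of all these cell types, and of macrophages, leukocytes and hepatocytes, in the Arg1 difference was not tested.

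The profile of Arg1 over the 8 libraries was set against every tested gene by the root mean square difference of the centred log2(CPM + 1) values, where a smaller value means a more alike profile. The 5 nearest genes were Car8 at 0.39, Rbp4 at 0.39, Fam159b at 0.40, Tenm4 at 0.44 and Corin at 0.45, beside a median of 1.67 over tested genes. Car8 is a member of the carbonic anhydrase family, Rbp4 carries retinol in blood and is abundant in delta cells, Tenm4 is a teneurin of the cell surface and Corin a membrane-bound protease. Rbp4 lay between 155 and 312 CPM among top and between 1186 and 1942 CPM among bottom libraries. Car8 lay between 19.0 and 60.2 CPM among top and between 81.9 and 222 CPM among bottom libraries. Like Arg1, Car8 had its highest top value in top 3 and its highest bottom value in bottom 4. This is a description of 8 libraries that share population and batch.

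**Figure D2:**
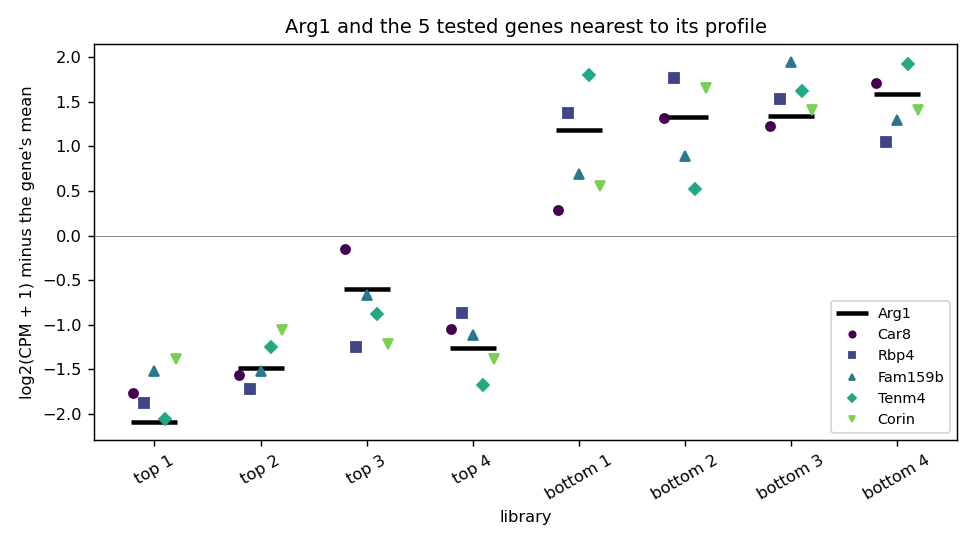
Centred profiles, the log2(CPM + 1) value in each library minus the mean of that gene over 8 libraries. Black bars are Arg1 and the symbols are the 5 tested genes nearest to it, which lie at root mean square differences of 0.39 to 0.45 from it, each low in the 4 top and high in the 4 bottom libraries.

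Arg2, the mitochondrial arginase, had another order of libraries than Arg1. It stood at 71.1, 0.502, 0 and 1.11 CPM in top 1 to top 4. In bottom 1 to bottom 4 it stood at 2298, 533, 19.8 and 0 CPM. The populations overlapped, since bottom 4 was at 0 and top 1 above bottom 3.

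The means of Arg2, 18.2 ± 35.3 CPM in top and 713 ± 1085 in bottom (SD, n = 4), each rested on 1 library. Without top 1 the top mean was 0.538 CPM, and without bottom 1 the bottom mean was 184 CPM. The fitted log2 fold change was 4.90 with an SE of 1.71, and Arg2 was not among the called genes. Its SD within populations was 4.06 on the log2(CPM + 1) scale. The difference of batch 2 from batch 1, which played no role in the choice of members, was a log2 fold change of -6.75 (SE 1.82, adjusted p = 0.333 by edgeR over all genes). It missed the threshold in DESeq2 as well (adjusted p = 0.0531) and passed in edgeR without the low-count filter (adjusted p = 0.0231). Of all tested genes 0.00853% were called between batches and 8.4% had an unadjusted p under 0.05.

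The order of the libraries for Arg2 was that of their intestinal transcripts, apart from bottom 3 and a shared 0. Arg2 equalled 7.10% of the summed intestinal genes in bottom 1, 7.04% in bottom 2 and 3.42% in top 1. In top 4, whose intestinal sum was 760 CPM, it equalled 0.146%. Bottom 3 stood apart, with 188 Arg2 counts beside an intestinal sum of 41.4 CPM. The 2 nearest profiles to Arg2 were Ces2e, a carboxylesterase, at a root mean square difference of 0.99, and Retsat, a retinol saturase, at 1.31, beside a median of 4.196. Ces2e stood at 929 and 111 CPM in bottom 1 and bottom 2, 47.0 in top 1 and at most 3.69 elsewhere. Arg1 and Arg2 lay 3.84 apart by the same measure. The part of intestinal RNA in the Arg2 values was not tested.

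Slc7a7, the light chain of a transporter that pairs with Slc3a2 and exports cationic amino acids across the basolateral side of intestinal and kidney epithelium, was also highest in bottom 1 and bottom 2. It stood at 2.45, 0.126, 0 and 0 CPM in top 1 to top 4. The bottom libraries, 1 to 4, held 312, 71.7, 3.48 and 4.73 CPM. The lowest bottom library, bottom 3, was above the highest top library, top 1, by about 1 CPM.

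The log2 fold change of Slc7a7 was 7.31 (SE 1.03). The 4 top libraries held 18 counts in all, 17 of them in top 1, and the 4 bottom libraries 3711. Without bottom 1 its bottom mean fell from 98.1 to 26.6 CPM, and without top 1 its top mean fell from 0.643 to 0.0419 CPM, where the fitted log2 fold change was 10.1 (SE 1.12). In batch 2 alone the top libraries had 0 counts against 84 in bottom, at least 19.9-fold higher with a floor of 3 counts over both top libraries. Those 84 counts came from bottom 3 and bottom 4, whose intestinal sums were 41.4 and 14.5 CPM. The macrophage sums were 21.1 and 22.4 CPM in bottom 3 and bottom 4, 1.09 and 1.03 CPM in bottom 1 and bottom 2, and 1.11 to 7.91 CPM in top. Slc7a7 equalled 0.966% of the intestinal sum in bottom 1 and 0.947% in bottom 2, but 0.118% in top 1. The part of intestinal or macrophage RNA in the Slc7a7 values was not tested.

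Between batches Slc7a7 had a log2 fold change of -5.62 (SE 0.99, adjusted p = 0.164 by edgeR), and it passed with DESeq2, without the low-count filter and when library top 2 was left out. Its nearest profiles were Osgin1, at a root mean square difference of 0.82, and Ovol1, an epithelial transcription factor, at 0.88, beside a median of 2.997.

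Agmat, which encodes agmatinase, named for the hydrolysis of agmatine to putrescine and urea, was seen in 1 library of each population. It had 38 counts (5.47 CPM) in top 1 and 375 rounded counts (41.0 CPM) in bottom 1. The other 6 libraries had 0 counts, where the floor of 3 counts lay between 0.278 and 0.476 CPM. Bottom 2, with the second highest intestinal sum, was among those at 0. Agmat was not tested, since too few libraries held counts to pass the filter.

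**Figure D3:**
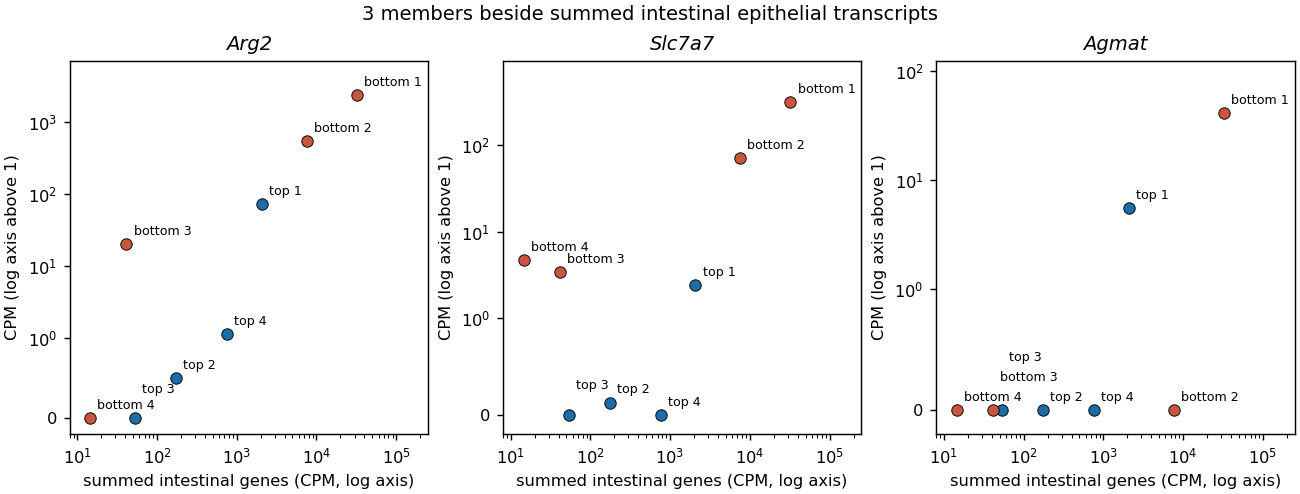
Arg2, Slc7a7 and Agmat in CPM (axis linear below 1, logarithmic above) against the summed intestinal epithelial genes in CPM (log axis), 1 point per library, blue for top and red for bottom. Bottom 1 is at the upper right of each panel, and bottom 3 and bottom 4 hold 3.48 and 4.73 CPM of Slc7a7 at low intestinal sums.

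Argininosuccinate synthase (Ass1) and lyase (Asl), the consecutive enzymes that rebuild arginine from citrulline, had fold changes of opposite sign that did not pass. Ass1 had 1.01, 11.05, 19.5 and 0 CPM in top 1 to top 4, and 28.1, 8.97, 13.6 and 11.1 CPM in the bottom libraries in order. The top libraries ranged from 0 to 19.5 CPM and overlapped the narrower range of bottom. Its means were 7.90 ± 9.22 and 15.4 ± 8.63 CPM (SD, n = 4), with a log2 fold change of 0.97 (SE 1.34).

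Asl stood at 48.0, 9.79, 4.45 and 9.37 CPM in top 1 to top 4. In bottom 1 to bottom 4 it stood at 10.8, 0.467, 6.64 and 2.22 CPM. Top 1 was far above the other top libraries, and the remaining values overlapped. The log2 fold change was -1.50 (SE 1.09), and the top mean of 17.9 CPM became 7.87 CPM without top 1. Neither gene was called, and neither passed the batch or interaction test (edgeR adjusted p between 0.802 and 0.993). The profiles of Ass1 and Asl lay 2.502 apart, and that of Ass1 lay nearer to Arg1, at 1.32.

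Odc1, the ornithine decarboxylase that starts polyamine synthesis, was present in every library with overlapping populations. It stood at 120, 124, 291 and 436 CPM in top 1 to top 4. The bottom libraries, 1 to 4, held 304, 187, 259 and 311 CPM. Both batch 1 top libraries were below all other libraries.

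The means of Odc1 were 243 ± 151 and 265 ± 57.0 CPM (SD, n = 4), with a log2 fold change of 0.33 (SE 0.34). Its direction differed by batch, at 1.97-fold higher in bottom in batch 1 and 1.23-fold higher in top in batch 2. The interaction was -1.35 on the log2 scale (SE 0.52, edgeR unadjusted p = 0.0306 and adjusted p = 0.609), so that the difference between batches did not pass. Of the tested genes 7.55% had an unadjusted interaction p under 0.05, and 0 passed after adjustment.

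Gatm, which transfers the amidino group of arginine to glycine in the first step of creatine synthesis, had overlapping values. It stood at 4.17, 3.26, 0.124 and 9.84 CPM in top 1 to top 4. In bottom 1 to bottom 4 it stood at 29.6, 2.71, 39.2 and 16.8 CPM. Only bottom 2 of the bottom libraries lay within the range of top. The log2 fold change was 2.30 (SE 1.16), and summed counts were 4.10-fold higher in bottom in batch 1 and 6.22-fold higher in batch 2. Its nearest profiles were Auts2 at 0.61 and Dlk1, an imprinted gene of endocrine cells, at 0.63, beside a median of 1.84.

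Nos2, the inducible nitric oxide synthase, had almost no counts. It had 0 counts in the 4 top libraries, where the floor of 3 counts over the population was 0.102 CPM. It had 1 count in bottom 1, 3 in bottom 3 and 0 in bottom 2 and bottom 4. At this depth a difference between populations was not detectable. Mafa also had 0 counts in every library, so 0 counts need not mean that a transcript was absent. Of the other synthases, Nos1 had 0 counts in all libraries, and Nos3 stood at 0.124 to 3.65 CPM in top and 0 to 6.64 CPM in bottom.

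The other genes of arginine metabolism were read from a list by role, of which 74 are in the table and 53 were tested. In edgeR 0 of the 53 passed in either direction, beside 0.444% of all tested genes. At an unadjusted p under 0.05 there were 4 (2 higher, 2 lower), where 10.3% of all tested genes reached that level, 5.62% higher and 4.63% lower. The median log2 fold change of the list was -0.07, beside 0.00 over all tested genes, with 26 positive and 27 negative. The populations did not overlap for 2 of the 53 with bottom higher and 2 with top higher. Over all tested genes these shares were 3.31% and 3.91%. DESeq2 called 3 of the list, Glul, Slc25a15 and Slc6a8, beside 587 calls over all 11721 filtered genes, and limma-trend called 0 of the list. Nothing is read from these 3 calls about the list as a whole. No listed gene passed the batch or interaction test in edgeR.

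**Figure D4:**
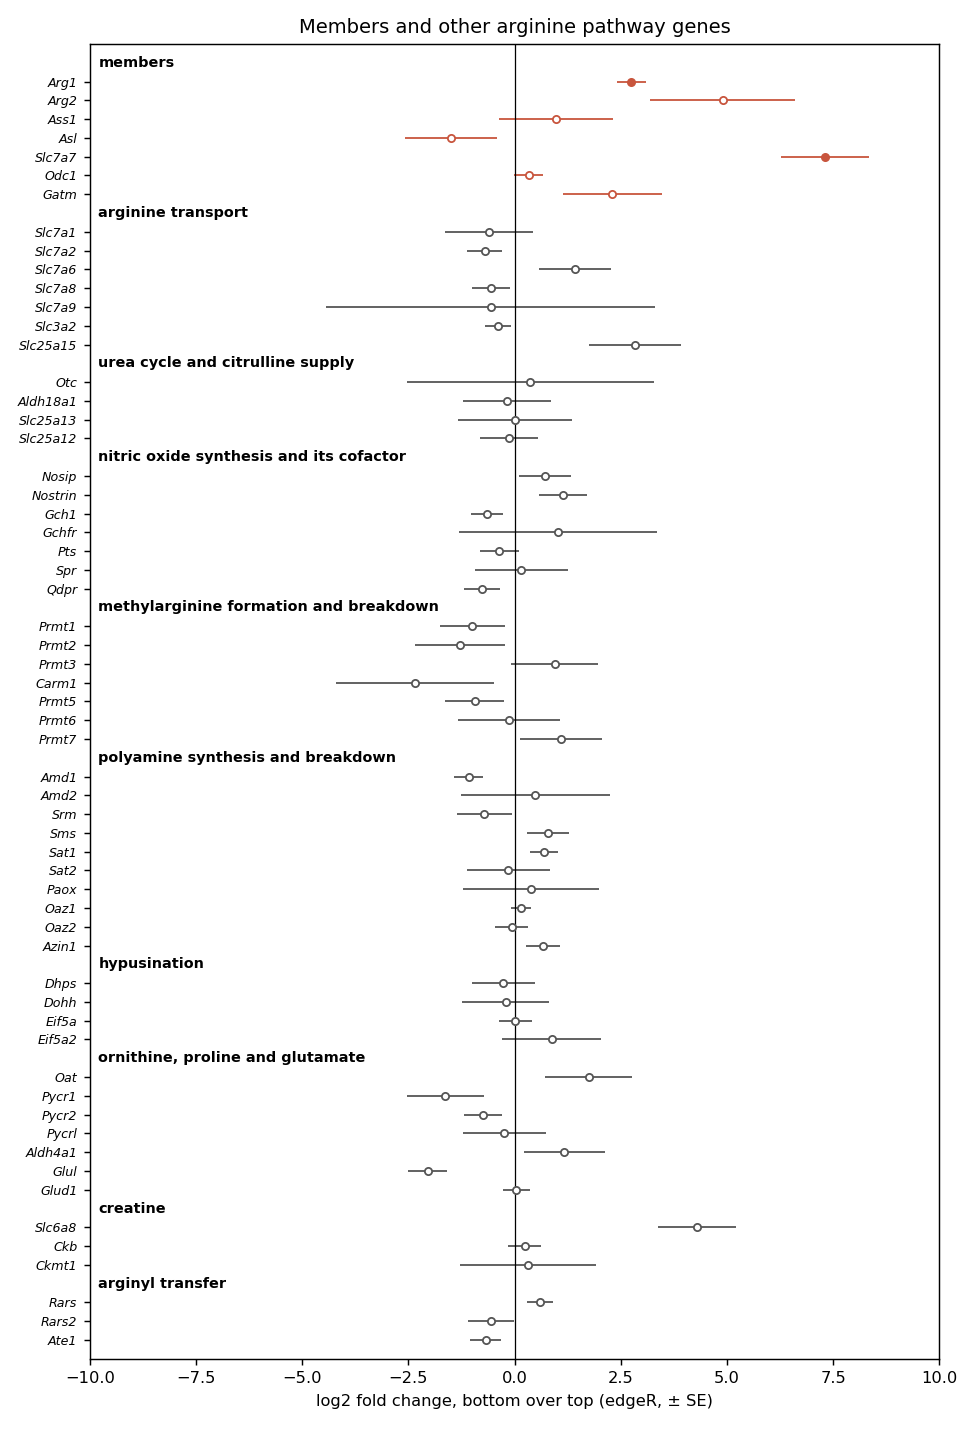
Log2 fold change of bottom over top (edgeR) with its SE for the 7 tested members in red and other tested genes of the pathway in grey, all but 1 of them, grouped by role. Filled points are called genes, which are Arg1 and Slc7a7, and the other points are open.

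Among transporters, 0 of 7 tested genes were called and the median was -0.56. The largest value was that of Slc25a15, the carrier that exchanges ornithine and citrulline across the mitochondrial membrane, with a log2 fold change of 2.83 (SE 1.09, adjusted p = 0.382 by edgeR). It stood at 130 CPM in bottom 1 and 12.9 to 30.2 in the other bottom libraries, beside 0.371 to 21.4 in top. Slc7a2, a main importer of cationic amino acids, averaged 324 CPM in the top and 207 CPM in the bottom libraries (-0.70 as a log2 fold change, SE 0.42, adjusted p = 0.645 by edgeR). Slc3a2, the heavy chain that Slc7a7 needs, averaged 133 CPM in top and 107 CPM in bottom (-0.39, SE 0.31, adjusted p = 0.768 by edgeR).

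The genes Otc, Cps1, Slc3a1 and Slc7a9 were singled out after their values had been seen, and each was highest in bottom 1, as was Arg2. Other listed genes, Oat, Aldh18a1 and Ckmt1 among them, had their highest value there too. The share of all genes that were highest in bottom 1 was not counted, so nothing is read from this likeness. Otc, which makes citrulline from ornithine, had 291 CPM in bottom 1, 122 in bottom 2 and 0 in bottom 3 and bottom 4, while top 1 to top 4 had 12.4, 18.1, 0 and 5.40 CPM (log2 fold change 0.37, SE 2.91, adjusted p = 0.981 by edgeR). Cps1, which supplies it with carbamoyl phosphate, had 29.9 CPM in bottom 1, 24.2 in bottom 2 and 0 in bottom 3 and bottom 4, with 11 counts in top, all in top 1. Slc3a1, a subunit of the brush border transporter of cystine and basic amino acids, had 58.4 CPM in bottom 1, 44.1 in bottom 2, 0 in bottom 3 and 0.278 in bottom 4, and 0 counts in top. Cps1 and Slc3a1 were too sparse to be tested. Slc7a9, the partner of Slc3a1, stood at 161 CPM in bottom 1, 6.26 in bottom 2 and 0 in bottom 3 and bottom 4. In top 1 to top 4 it stood at 15.5, 0, 0 and 8.89 CPM.

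For polyamines, Amd1, which makes the aminopropyl donor, had the largest value of 10 tested genes. It stood at 131, 158, 127 and 160 CPM in top 1 to top 4 and at 39.4, 49.4, 116 and 93.3 CPM in the bottom libraries in order. Every bottom library was below every top library, as in 3.91% of tested genes with top higher. Amd2, a close copy that shares reads with Amd1, stood at 23.0, 18.8, 11.6 and 0 CPM in top 1 to top 4. In bottom 1 to bottom 4 Amd2 stood at 0, 92.4, 0.105 and 10.2 CPM. The separation of Amd1 depends on how these shared reads were divided, which was not tested. The log2 fold change of Amd1, -1.08 (SE 0.34), did not pass (adjusted p = 0.279 by edgeR). Odc1 and Amd1, the decarboxylases that feed the pathway, thus had log2 fold changes of 0.33 and -1.08. Azin1, which protects Odc1 from degradation, averaged 116 CPM in top and 181 CPM in bottom (0.67, SE 0.39, adjusted p = 0.645 by edgeR).

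Around ornithine, proline and glutamate, Glul, the glutamine synthetase, had the largest value of 8 tested genes. It stood at 87.6, 93.2, 48.6 and 115 CPM in top 1 to top 4. The bottom libraries, 1 to 4, held 10.9, 31.9, 16.7 and 23.6 CPM. The populations did not overlap, as in 3.91% of tested genes with top higher. The log2 fold change of -2.05 (SE 0.46) missed the threshold in edgeR (adjusted p = 0.111). DESeq2 (adjusted p = 0.00153) and edgeR without the low-count filter (adjusted p = 0.0464) called Glul.

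In creatine metabolism, Slc6a8, the creatine transporter, stood at 12.7, 1.51, 0.742 and 0.794 CPM in top 1 to top 4. In bottom 1 to bottom 4 it stood at 165, 18.8, 20.3 and 29.6 CPM. All bottom libraries were above all top libraries, as in 3.31% of tested genes with bottom higher. The log2 fold change of Slc6a8 was 4.29 (SE 0.91, adjusted p = 0.098 by edgeR, DESeq2 adjusted p = 6.9e-06). It was called by edgeR without the low-count filter (adjusted p = 0.0139). Without bottom 1 its bottom mean fell from 58.4 to 22.9 CPM, and without top 1 its top mean fell from 3.93 to 1.01 CPM. Bottom 1 and top 1 also held the most intestinal transcripts of their populations. Thus the transporter of creatine and Gatm, the first enzyme of its synthesis, both had positive values, and neither was called in edgeR with the low-count filter.

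In the remaining roles the genes with the largest values did not pass. Nostrin, which binds the endothelial nitric oxide synthase, had a log2 fold change of 1.13 (SE 0.56, adjusted p = 0.552 by edgeR). Carm1, an arginine methyltransferase, had one of -2.35 (SE 1.86, adjusted p = 0.768 by edgeR), Eif5a2 one of 0.87 (SE 1.16, 0.887) and Ate1, which transfers arginine to protein ends, one of -0.68 (SE 0.36, 0.598). Gch1, which starts the synthesis of the cofactor of nitric oxide synthases, averaged 172 CPM in top and 113 CPM in bottom (-0.66, SE 0.38, adjusted p = 0.634 by edgeR). Nos2, beside it, had almost no counts.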

How the data were processed

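The deposited values were expected counts, estimates of reads per gene made by RSEM on the mouse build mm9 per the submitters' processing notes, which also name edgeR. Their versions, the aligner and the annotation are not given in the sources used here. Per the labels' protocols, cDNA was amplified with the SMARTer Ultra Low RNA kit and libraries were made with Nextera XT. The largest difference between the series table and the per-library tables was 0, and 34.8% of values were not whole. Expected counts were rounded, scaled by TMM and filtered by filterByExpr (minimum count 10), which left 11721 genes.

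The edgeR 4.0.16 quasi-likelihood test (R 4.3.3) compared bottom with top with batch as a covariate. Batch and interaction terms used the same counts, with Benjamini-Hochberg adjustment over all genes and calls at an adjusted p under 0.05. DESeq2 1.42.0 and limma 3.58.1 were alternatives. The test was also run on simulated data with the same spread for every gene and no batch effect. That spread was smaller than in these data, where the common biological coefficient of variation was 0.806. The simulation therefore cannot vouch for the calls made here. Levels are CPM on TMM-scaled library sizes, and 1 was added before taking log2. Floors are 3 counts and cover counting error only, since amplified reads are not independent molecules. CPM is not corrected for gene length, so values of different genes set side by side are not a ranking of their levels.

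Replicate numbers follow accession order. The members and lists were chosen with earlier results of these data known. Named genes were the 9 members, called genes of the pathway list, the gene with the largest absolute log2 fold change of each role, and the nearest profiles (5 for Arg1, 2 for each other tested member). Other pathway genes named, the transporters, synthases and citrulline genes among them, were added after their values were seen. The labels name no strand-keeping step, and reads of overlapping antisense genes could not be separated, and genes with close copies such as Amd1 and Amd2 share reads that RSEM divides. The values of 1 gene of the pathway list are not reported here, and it enters only the counts and medians of the list.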

Additional observations from a re-analysis of the deposited data

Results flagged for a closer look

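Each member was checked in each population for 1 library far from the other 3, by Dixon's ratio of the gap to the range at the 95% level. Of 17 groups with any spread, 5 had such a library, where chance gives about 1 group in 20 if groups are separate draws. They are not here, since 4 of the 5 are library top 1, and for Agmat the other 3 libraries of each population were at 0, which gives the highest possible ratio. In top, library top 1 was far above the others for Arg2 (71.1 CPM), Asl (48.0 CPM), Slc7a7 (2.45 CPM) and Agmat (5.47 CPM). In bottom, library bottom 1 was far above the others for Agmat (41.0 CPM). Top 1 and bottom 1 had the highest summed intestinal transcripts of their populations, at 2077 and 32340 CPM, and their part in these values was not tested.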

How the results depend on the processing

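The count of 52 genes (33 higher, 19 lower) called between bottom and top became 587 with DESeq2, 125 with limma-trend, 204 with all low-count genes kept, 32 when batch was left out of the model, 2 in batch 1 alone and 2 in batch 2 alone. It ranged from 8 to 60 over the omissions of 1 library, with 12, 8, 28 and 14 when top 1, top 2, top 3 or top 4 was absent and 60, 33, 23 and 11 for bottom 1, bottom 2, bottom 3 or bottom 4. It was 38 without bottom 1 and bottom 2 and 2 when top 1 was left out as well, both chosen after seeing the data. Without TMM 71 were called (55 higher, 16 lower), and the median log2 fold change of all genes moved to 0.34. The replicate block of batch and title number gave 0 calls (710 at an unadjusted p under 0.05). Only number 1 is shared by the populations, and the labels do not say whether libraries of that number share a source. The deviations of those libraries correlated at 0.0926 in batch 1 and -0.00134 in batch 2. Deviations from means of 2 libraries cannot decide whether the block pairs anything. The 0 called pathway genes became 3 with DESeq2 (Glul, Slc25a15, Slc6a8) and 3 without the filter (Glul, Slc3a1, Slc6a8), and stayed 0 in the other settings, block included. The 1 gene called between batches became 370 with DESeq2, 149 without the filter and 0 to 17 over the omissions. The 0 interaction calls (885 at an unadjusted p under 0.05) became 188 with DESeq2 and 71 without the filter. The cause of these moves was not tested.

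Arg1 kept a log2 fold change between 2.40 and 3.09 (3.09 without TMM). It was not called without top 1, top 2, top 4 or bottom 4, in either batch alone, in the block, or without bottom 1 and bottom 2 with or without top 1. Slc7a7 kept one between 6.38 and 10.1. Among omissions it was called only without top 1 and without bottom 2, and not without the batch term, in either batch alone, in the block or in both later settings. Odc1 changed sign in batch 2 alone (-0.33) and without bottom 1 and bottom 2, with top 1 kept or left out (-0.35 each). The other tested members kept their sign in every setting that tested them. Small counts limit Nos2, Agmat and Slc7a7 in top.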
